A study of Mus musculus with 1778 samples.

Results

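This account follows 10 genes of ribosome production through the early formation of the mouse cranial neural crest. They are the 45S pre-ribosomal RNA Rn45s, Tcof1, the RNA polymerase I genes Polr1a, Polr1b, Polr1c and Polr1d, and the nucleolar genes Ncl, Npm1, Fbl and Nolc1. The genes were chosen by name, as the transcript of RNA polymerase I and the proteins that make and process it, and all 10 were found among the 24920 genes of the table. The cells were tomato-labelled cells from the heads of C57BL/6 embryos carrying Wnt1::Cre and Rosa26TdTomato, taken at 4, 6, 8 and 10 somites. All 4 groups carry both alleles and the labels name no treatment, so stage is the labelled difference between them, and tomato is kept by any cell in which Wnt1 had once driven Cre, in the dorsal neural tube as in the crest. Single cells were sorted into lysis buffer and read with Smart-Seq2, a full-length method primed on poly(A) tails that has no molecular identifiers. After filtering 1728 cells remained, of which 12.73% were of 4 somites, 48.3% of 6, 13.1% of 8 and 25.8% of 10. Embryos and litters are not identified in the labels, so a stage is 1 pool of cells: no test between stages was possible, intervals cover counting error only, and reads without identifiers are not independent molecules.

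RNA polymerase I works in the nucleolus, where it transcribes the repeated ribosomal DNA into the 45S precursor of the 18S and 28S ribosomal RNAs. Polr1a and Polr1b encode the largest subunits, which form its active site, while Polr1c and Polr1d encode subunits that RNA polymerase III also uses. Treacle, the product of Tcof1, is a nucleolar protein that binds the polymerase and is needed for rDNA transcription and pre-rRNA modification. Ncl encodes nucleolin and Npm1 nucleophosmin, which are abundant nucleolar proteins of ribosome assembly. Fbl encodes fibrillarin, the methyltransferase of box C/D small nucleolar ribonucleoproteins, and Nolc1 encodes a chaperone of those particles that is related to treacle. Mutations of human TCOF1, POLR1B, POLR1C and POLR1D cause Treacher Collins syndrome, and mutations of POLR1A cause acrofacial dysostosis of the Cincinnati type, both with defects of neural crest-derived facial structures.

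The promoters of Ncl and Nolc1 are shown because the levels of these genes went together from cell to cell in every group examined, as described below. Other pairs did so too, among them Polr1b with Ncl and Polr1b with Nolc1. The closest partner of Ncl was Npm1, whose promoter was not matched. Each sequence shown is the 250 bases before the RefSeq gene start on GRCm38.p6, written 5′ to 3′ on the gene's own strand. Capitals mark the GC box GGGCGG or its reverse CCGCCC, and the ETS-type core CCGGAAG. The Ncl sequence lies at chr1:86359456-86359705 on the minus strand, and the Nolc1 sequence at chr19:46075597-46075846 on the plus strand.
Ncl: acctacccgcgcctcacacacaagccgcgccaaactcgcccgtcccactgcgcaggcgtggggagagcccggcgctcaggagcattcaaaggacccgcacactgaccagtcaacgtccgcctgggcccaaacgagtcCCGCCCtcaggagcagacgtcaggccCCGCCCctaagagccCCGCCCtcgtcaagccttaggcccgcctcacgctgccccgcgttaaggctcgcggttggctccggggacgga
Nolc1: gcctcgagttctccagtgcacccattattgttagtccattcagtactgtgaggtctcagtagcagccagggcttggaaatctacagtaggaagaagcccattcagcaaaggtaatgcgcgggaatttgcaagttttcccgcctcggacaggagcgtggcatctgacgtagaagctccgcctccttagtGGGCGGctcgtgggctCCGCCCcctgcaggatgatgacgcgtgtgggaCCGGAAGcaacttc
The Ncl window held 3 GC boxes, at 72 and 87 bases before the start and 1 farther upstream. The Nolc1 window held 2, at 46 and 62 bases, and 1 ETS-type core at 14 bases. Of the 9 protein-coding genes, 6 were matched in the promoter table. GGGCGG on either strand was in 4 of these 6 and in 32.7% of 32851 promoters of the same length. CCGGAAG on either strand was in 2 of the 6, Nolc1 and Polr1c, against 6.91% of all. The E-box CACGTG, which reads the same on both strands, was in 0 of the 6, against 6.02% of all. These are matches of letters, and none of them was tested as a binding site.

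The titles of the cells carry a well and a 7-digit number, which was read as a plate. The 8 plates are called A to H in the order of their numbers, and there were 12 groups of 1 stage on 1 plate. Kept cells had 92185 to 2098451 reads on genes, and stage medians of reads other than Rn45s ran from 342303 to 517650. The cells differed in kind between stages: 10.9, 30.4, 70.9 and 78.3% of kept cells at 4, 6, 8 and 10 somites passed a limit of 20 CPM of Sox10, a marker of the crest. The summed level of 8 crest markers was 228.5, 529.4, 1110 and 1194 CPM. That of 7 surface ectoderm markers was 449.8, 547.3, 322.4 and 224.2 CPM, and that of 5 erythroid markers 0.12, 122.6, 144.9 and 1.31 CPM. The erythroid sums followed plate B. At 6 somites they were 1202 CPM on plate B and 0.48 to 0.72 CPM on the other plates. At 8 somites they were 154.8 CPM on plate B and 0 on plate D. In reads summed over a stage, a different mix of cells and a different level within cells cannot be told apart. The share of artificial spike-in RNA jumped between neighbouring plate columns, so plates were divided at steps of at least 2.5-fold, and blocks longer than 8 columns into runs of 6. This gave 23 blocks of plate columns.

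A set of cells stood apart from the rest of their stage and is treated separately throughout. It consists of columns 20 to 24 of plate C and of plate G, 75 and 12 cells of 10 somites, and it was set aside after its values had been seen. In these 87 cells Rn45s took 35.9% of the reads, against 53.8% in the other cells of that stage. The summed level of 39 cytosolic ribosomal protein genes was 42322 CPM against 19121 CPM. The share of Sox10-positive cells was 81.6% against 77.4%. The main results on 10 somites are given with and without these cells.

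Rn45s was the largest single transcript of the libraries, with 54.4% of all reads on genes in the kept cells. By stage it took 55.03, 59.2, 44.4 and 50.1% of the reads at 4, 6, 8 and 10 somites. Among single cells the lowest, median and highest shares were 20.9, 54.5 and 81.995% at 4 somites and 0.60, 59.4 and 80.4% at 6 somites. They were 18.1, 43.996 and 91.6% at 8 somites and 1.17, 49.6 and 98.02% at 10 somites. The ranges of the 4 stages overlapped over most of their length, and 9 cells were above 80% and 8 below 20%. The mature 18S and 28S sequences lie within the 45S repeat, so precursor and mature rRNA cannot be told apart in this value, and how rRNA entered poly(A)-primed libraries was not tested.

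The Rn45s share differed between plates of 1 stage as much as between stages. The 5 plates of 6 somites gave 46.1, 50.3, 58.6, 58.9 and 66.4%, a SD of 7.96 percentage points, and the 12 groups ran from 35.6 to 66.4%. Stage accounted for 21.1% of the variance of the share between cells, stage and plate for 40.7%, and block of columns for 64.9%. Plate rows, by comparison, accounted for 44.3%, close to the plate alone. Within plate C, which holds 10-somite cells throughout, the share was 43.1% in columns 2 to 7, 66.1% in columns 8 to 13, 58.1% in columns 14 to 19 and 35.995% in columns 20 to 24. The spike-in share of the median cell was 0.084, 3.84, 0.487 and 0.786% in the same blocks, so the first 2 of these steps lay at steps of at least 2.5-fold in spike-ins and the last did not.

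**Figure D1:**
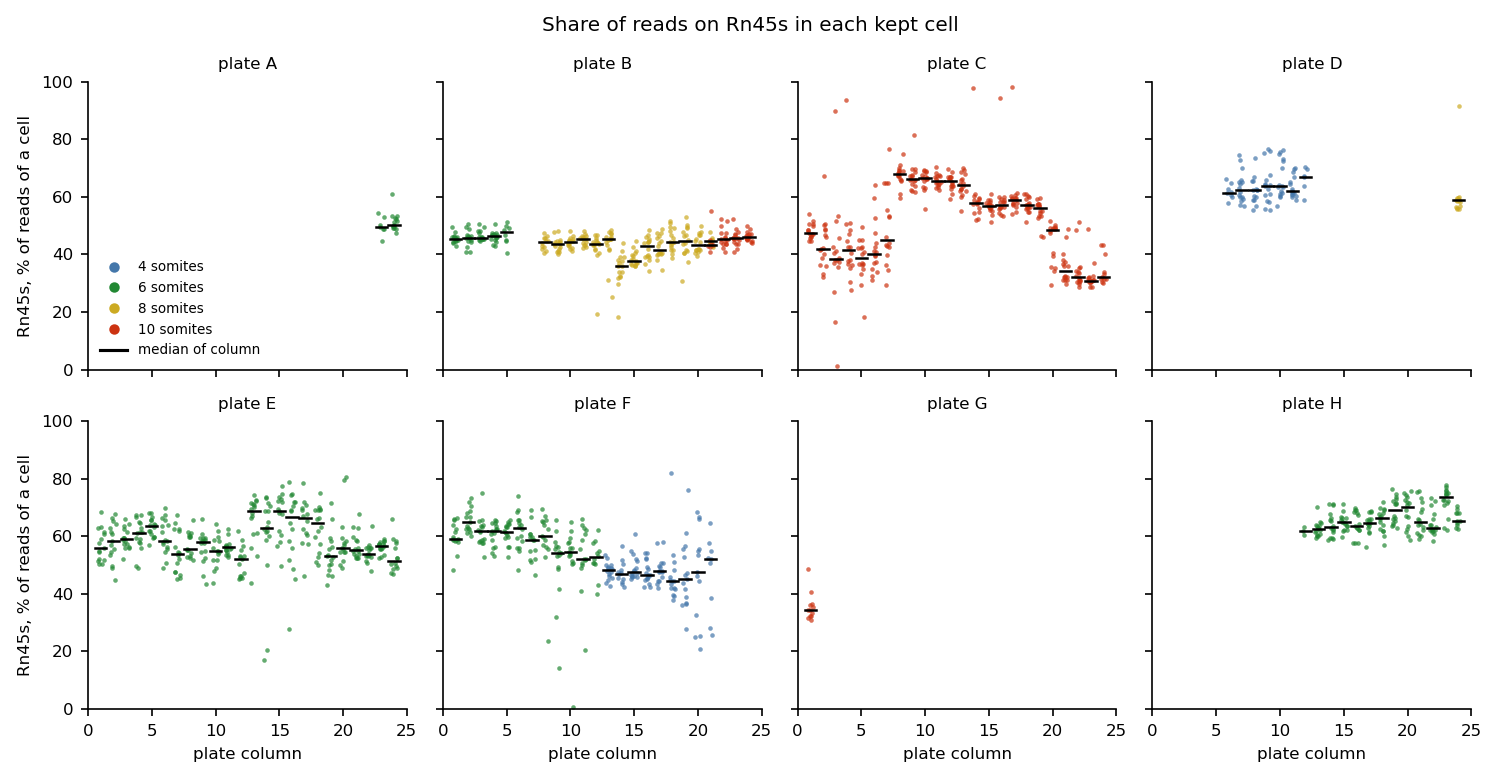
Share of reads on Rn45s (percent, vertical axis) in each kept cell against the plate column (horizontal axis), with 1 panel per plate and colours for the stages. The shares step between blocks of columns on some plates, for example from 43.1 to 66.1% between columns 2 to 7 and 8 to 13 of plate C.

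No difference in the Rn45s share between stages kept its sign when single plates were left out. At 6 somites the Rn45s share was 4.13 points above that of 4 somites over all cells, and 11 points above it on plate F, which holds both. On that plate the stages lie in separate columns, with a spike-in share of 7.22% at 6 somites and 0.598% at 4, and stage and column block cannot be told apart. At 8 somites the share was lower than that of 6 somites, by −14.72 points over all cells, but by −3.32 points within plate B. In columns of that plate with a like spike-in share, 0.526 and 0.431%, the difference was −2.41 points. At 10 somites it was 5.63 points above that of 8 over all cells, 9.38 points without the cells that stand apart, and 3.01 points within plate B. For 10 against 4 somites the sign depended on the route: the difference was −4.96 points over all cells, −1.20 points without the cells that stand apart, 10.69 points in the sum of the within-plate steps by way of 6 somites, and −0.28 points in the sum by way of 8. Leaving out plate F changed the difference of 6 against 4 somites to −4.79 points. Leaving out plate B changed that of 8 against 6 to 0.50 points and that of 10 against 8 to −9.87. Without plate C 10 against 8 gave −0.363 points, and without plate D 10 against 4 gave 2.13.

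The other 9 genes are given as CPM, counts per 1000000 reads on genes, with Rn45s and spike-ins left out of that total. All 9 passed the minimum of 20 CPM over the kept cells that 6852 genes passed. The gene with the fewest reads was Fbl, whose exact Poisson interval at 4 somites ran from 75.1 to 78.4 CPM, so counting error was small beside the spread over plates. Per kilobase of exon the order at every stage began with Npm1, at 1880 to 2258 CPM per kb, followed by Ncl, at 233.8 to 309.9, Nolc1, at 112.5 to 143.5, and Polr1c, at 78.3 to 87.98. Tcof1, Polr1b and Polr1d came next at 34.2 to 56.95, 35.4 to 43.5 and 35.2 to 48.3 CPM per kb. Their ranges over the stages overlapped. Fbl, at 16.05 to 20.5, and Polr1a, at 7.52 to 7.90, were lowest on this scale. The order depended on the length used. Per kilobase of the principal transcript, Polr1c and Nolc1 overlapped, at 135.7 to 152.5 and 122.9 to 156.8 CPM per kb. Polr1d, at 89.5 to 122.98, was above Fbl, at 56.4 to 72.2, Tcof1, at 39.8 to 66.2, and Polr1b, at 51.3 to 63.2 CPM per kb, and Fbl was above both Tcof1 and Polr1b at 4, 6 and 10 somites.

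Tcof1 (chr18:60813755-60848971) had the widest difference between stages of the 9 genes. It stood at 203.95, 180.04, 299.9 and 269.6 CPM at 4, 6, 8 and 10 somites. The 5 plates of 6 somites gave 125.3, 159.1, 226.5, 285.7 and 299.97 CPM, a SD of 0.55 on the log2 scale, which 90.9% of tested genes did not reach. The 8-somite groups, at 275.04 and 301.6 CPM, were close to the highest of the 6-somite plates: 1 lay inside their range and the other just above it. Over all cells the log2 ratio of 8 to 6 somites was 0.74, within plate B it was 0.08, and in columns with a like spike-in share −0.08. For 6 against 4 somites it was −0.18 over all cells and −0.58 within plate F, where 2.25% of tested genes were lower. For 10 against 4 it was 0.40 over all cells. The sum of the within-plate steps gave −0.67 by way of 6 somites and 0.07 by way of 8, so the routes differed in sign. The 6-somite blocks of plates A and B, in which 90.9 and 65.3% of cells were Sox10-positive, stood at 299.97 and 285.7 CPM. The other 8 blocks, with 1.16 to 41.8% of such cells, stood at 115.2 to 230.01 CPM. On plates B, E, F and H the Sox10-positive cells of 6 somites stood at 291.9, 189.4, 151.96 and 239.6 CPM. Cells there with at least 20 CPM of Sox2, a neural marker, and without Sox10 stood at 272.9, 148.4, 126.25 and 216.9 CPM. Tcof1 thus differed between plates in both kinds of cell. The part of the mix of cells in these differences was not tested.

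Polr1a (chr6:71909053-71984935), the gene of the largest subunit, was nearly level, at 89.3, 92.4, 91.1 and 93.7 CPM over the 4 stages. Its 23 blocks ran from 66.2 to 145.8 CPM, so the blocks differed more than the stages. An antisense gene of the annotation reaches an exon of Polr1a, and whether counting used the strand is unknown. Polr1b (chr2:129100995-129126594) stood at 222.7, 205.2, 252.8 and 233.9 CPM. Its blocks ran from 204.995 to 243.5 CPM at 4 somites, from 146.9 to 256.3 at 6 and from 122.4 to 268.4 at 10. Without the cells that stand apart the 10-somite blocks ran from 244.02 to 268.4 CPM, still overlapping those of 6 somites. The lowest of them, 16 cells of plate C, lay inside the counting interval of the highest 4-somite block, 238.6 to 248.5 CPM.

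In reads summed over all cells, the genes of the subunits shared by polymerases I and III differed little between stages, apart from Polr1d at 10 somites. Polr1c (chr17:46243920-46248054) stood at 189.3, 200.4, 178.3 and 180.8 CPM, and Polr1d (chr5:147077050-147111597) at 111.7, 116.7, 107.1 and 147.1 CPM. Within plates the log2 ratio of Polr1c was 0.01 for 6 against 4 somites, −0.36 for 8 against 6 and −0.22 for 10 against 8. In columns with a like spike-in share the last 2 were −0.18 and −0.09. For 10 against 4 it was −0.07 over all cells. The sums of within-plate steps gave −0.56 by way of 6 somites and −0.55 by way of 8, both with the 10-somite cells of plate B. The higher level of Polr1d at 10 somites rested on the cells that stand apart: without them it was 104.7 CPM, and the log2 ratio of 10 to 8 somites was −0.03 in place of 0.46. Over the 5 plates of 6 somites Polr1d had a SD of 0.07 on the log2 scale, and 2.90% of tested genes had a smaller one.

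Npm1 (chr11:33152287-33163206) was the most abundant of the protein-coding members, at 6017, 5399, 5011 and 5880 CPM. Without the cells that stand apart its 10-somite level was 4981 CPM, close to that of 8 somites. Ncl (chr1:86344719-86359400) stood at 2428, 2381, 2822 and 3157 CPM, and at 2739 CPM at 10 somites without those cells. Small nucleolar RNA genes lie inside Ncl, and 2 of them, with a microRNA gene, reach its exons, so their reads could not be separated from its own. Fbl (chr7:28169710-28179269) stood at 76.7, 67.5, 73.4 and 86.4 CPM, and at 69.2 CPM at 10 somites without the cells that stand apart. Nolc1 (chr19:46075863-46085530) stood at 467.6, 446.7, 547.5 and 569.8 CPM, and at 561.5 CPM at 10 somites without them. In blocks of columns the 4-somite cells ran from 374.7 to 528.99 CPM of Nolc1 and the 8-somite cells from 519.5 to 561.3, while 6 somites, at 361.7 to 623.7 CPM, covered both.

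**Figure D2:**
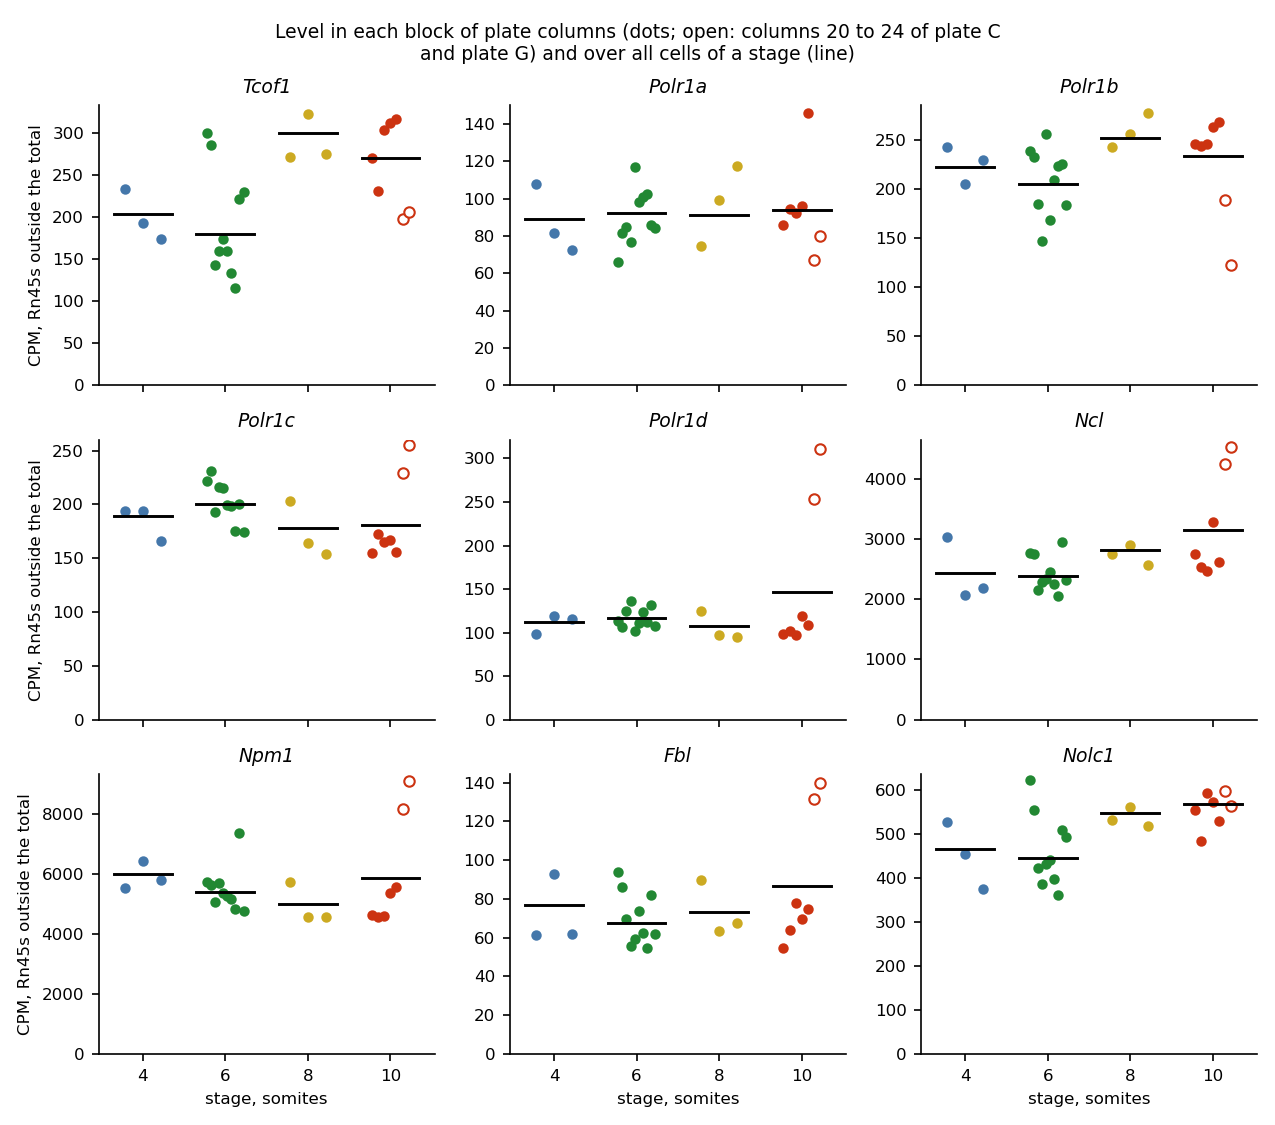
Level of each of the 9 genes (CPM, vertical axis from 0) in the 23 blocks of plate columns, by stage, with 1 panel per gene. Dots are blocks, open dots the cells that stand apart, and lines the level over all cells of a stage; the open dots are high for Polr1d, Npm1, Ncl, Fbl and Polr1c and low for Tcof1 and Polr1b, and in every panel the 6-somite dots reach into the range of the 8-somite dots.

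None of the 9 genes differed 2-fold over all cells in 4 comparisons between stages. For 6 against 4 somites, 0.876% of the 6852 genes were at least 2-fold higher and 0.102% at least 2-fold lower. The corresponding shares were 1.46 and 1.53% for 8 against 6 somites, 0.277 and 0.175% for 10 against 8, and 3.42 and 2.93% for 10 against 4. The median log2 ratio of the 9 genes in these 4 comparisons was −0.07, 0.12, 0.06 and 0.17, and that of all genes 0.01, 0.00, −0.01 and 0.02. Without the cells that stand apart the median was −0.02 for 10 against 8, with 3 of the 9 genes above 0 in place of 7, and 0.17 for 10 against 4. Within plates the medians of the 9 were 0.00, 0.02, −0.12 and −0.19, and in the first 3 of these none of the 9 was past 2-fold, beside 0.628% of all genes higher and 0.219% lower, 1.87 and 0.671%, and 0.175 and 0.73%. The values around 0 in both directions give the 9 genes no shared direction that held over all cells and within plates. In the chained within-plate route for 10 against 4 somites, 1 of the 9 was past 2-fold: Fbl, at −1.19, beside 4.12% of all genes at least 2-fold lower and 7.15% higher. In the route by way of 8 somites 0 of the 9 were past 2-fold, beside 5.76% of all genes higher and 5.91% lower.

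**Figure D3:**
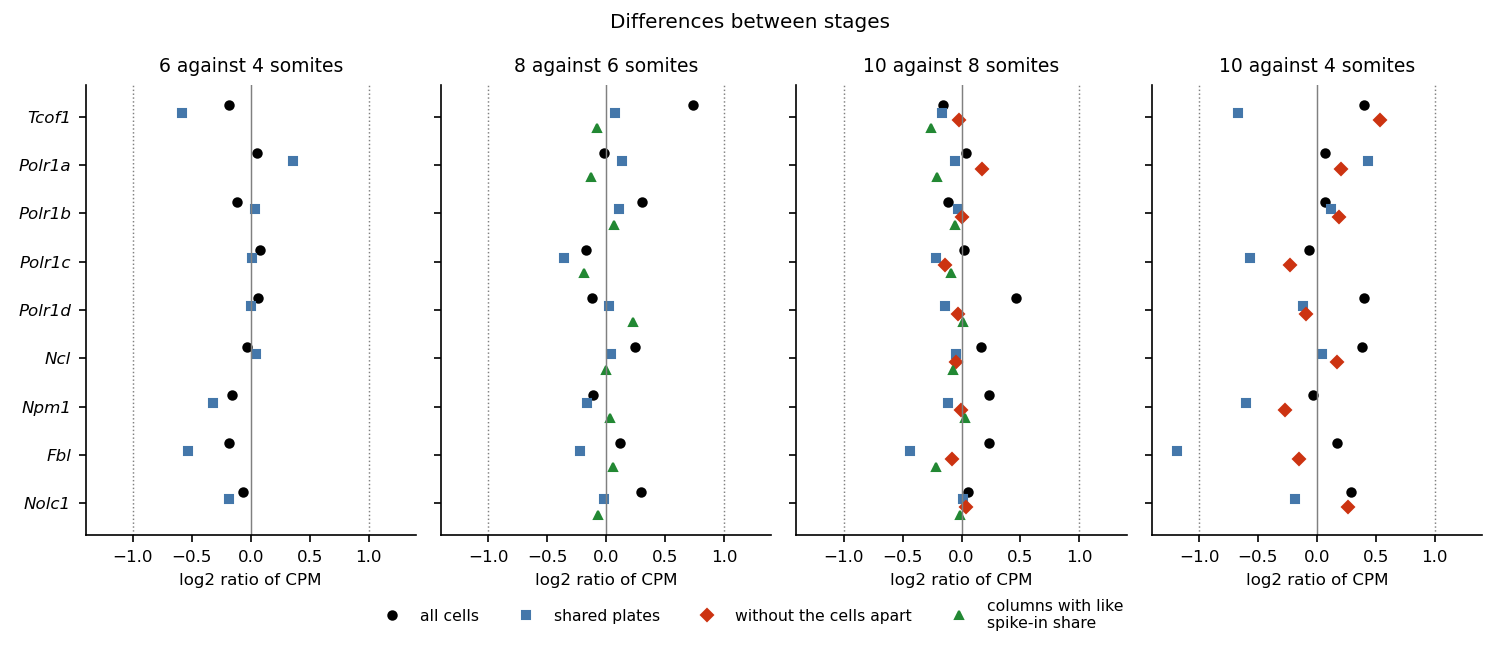
Log2 ratio of each of the 9 genes between stages (horizontal axis; dotted lines mark 2-fold), for 4 comparisons, over all cells, within plates, without the cells that stand apart and in plate columns with a like spike-in share. Tcof1 in 8 against 6 somites moves from 0.74 over all cells to 0.08 within plate B, and Polr1d in 10 against 8 somites moves from 0.46 to −0.03 without the cells that stand apart.

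The cells that stand apart differed from the other 10-somite cells in a way that separated the 9 genes by the length of their coding sequence. Polr1d was at 262.1 against 104.7 CPM, a log2 ratio of 1.32, and Fbl at 132.9 against 69.2 CPM, a ratio of 0.94. Npm1 was at 8315 against 4981 CPM (0.74) and Polr1c at 233.2 against 161.4 CPM (0.53). These 4 have the shortest coding sequences of the 9, from 0.399 kb for Polr1d to 1.038 kb for Polr1c. Of the 5 longer genes, Tcof1 was at 199.01 against 295.7 CPM (−0.57), Polr1a at 69.2 against 102.8 CPM (−0.57) and Polr1b at 178.9 against 254.2 CPM (−0.51). Nolc1 was at 592.5 against 561.5 CPM (0.08), and Ncl, at 4291 against 2739 CPM (0.65), was the exception among them. The 1 gene of the 9 past 2-fold was Polr1d, beside 4.71% of all genes at least 2-fold higher and 4.36% at least 2-fold lower.

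The same gradient ran through all genes. Over 6760 genes with a coding length, 98.7% of those tested, the ratio of these cells to the rest had a Spearman rho of −0.61 with that length. The median log2 ratio was 0.34 in the shortest of 4 equal classes, up to 0.864 kb, then −0.09 and −0.29, and −0.54 in the longest, above 2.205 kb. The 39 cytosolic ribosomal protein genes, which are short, all had ratios above 0, with a median of 1.54, beside −0.21 for all genes. Of the 39, 1 had no read at 10 somites, so its ratio came from the 0.5 added reads alone. The division of the members by length was made after their values were seen. Fragment length and RNA quality are not in the files, and their part in these values was not tested.

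**Figure D4:**
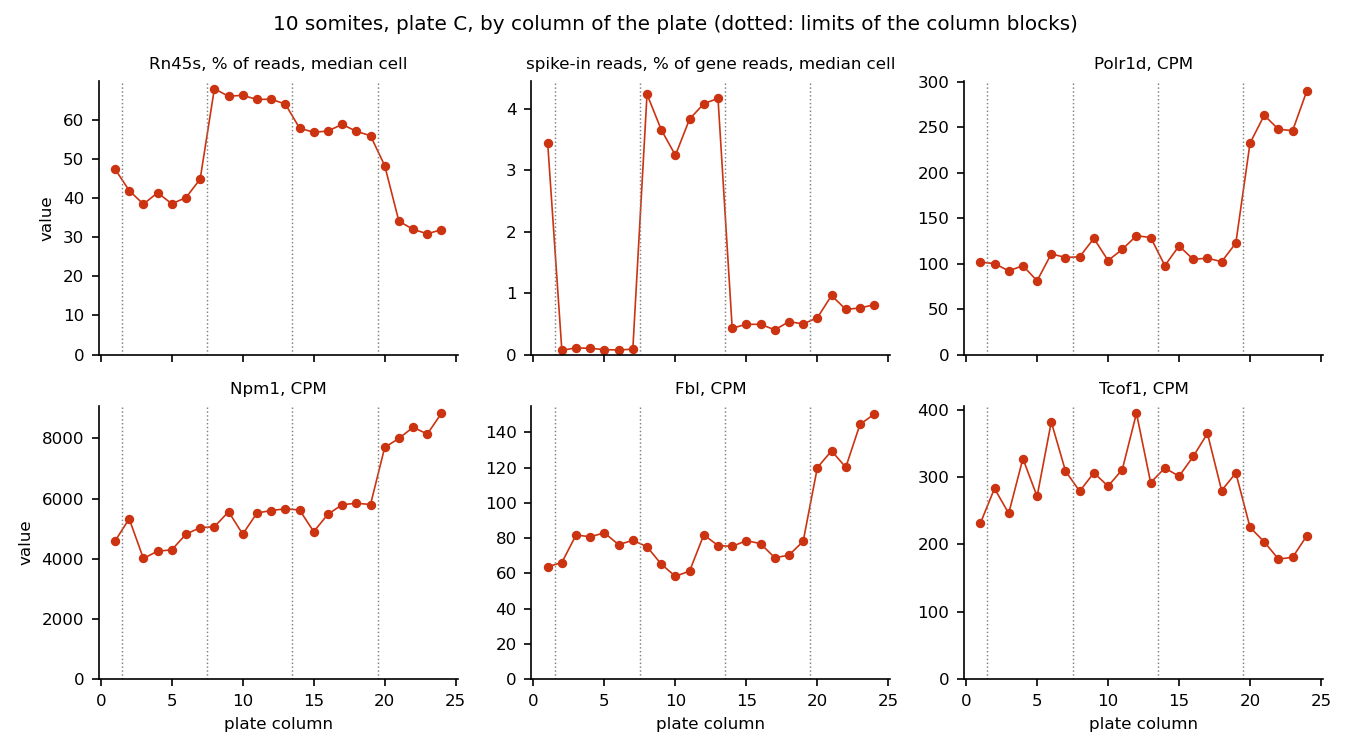
Values by column of plate C, all of 10 somites: the Rn45s share and the spike-in share of the median cell (percent) and the levels of Polr1d, Npm1, Fbl and Tcof1 (CPM). In columns 20 to 24 the Rn45s share and Tcof1 are low, at 35.995% and 197.75 CPM over the block, and Polr1d, Npm1 and Fbl are high, at 253.05, 8165 and 131.6 CPM.

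A gradient with length also accompanied smaller differences. Within the 8-somite cells of plate B, columns with 0.526% of spike-ins against columns with 3.66% gave a rho with coding length of −0.39. There Fbl, Polr1d, Npm1 and Polr1c had ratios of 0.50, 0.36, 0.34 and 0.30, and the 5 longer genes −0.41 to −0.08. The same contrast of low with high spike-in columns in 6-somite cells gave a rho of −0.28 on plate H but 0.25 on plate E, where the 4 short genes lay between −0.27 and 0.09 and the 5 longer between 0.02 and 0.62. The direction thus differed between plates. For 10 against 4 somites without the cells that stand apart the rho was 0.27, with the opposite order, and 0 of the 9 genes were past 2-fold beside 3.98% of all genes higher and 2.85% lower: the 4 short genes had ratios from −0.27 to −0.09 and the 5 long genes from 0.17 to 0.54. For 8 against 6 somites in columns with a like spike-in share the rho was 0.03, and the 9 genes lay between −0.18 and 0.23 with no order by length. The part that length plays in each stage ratio was not tested further.

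Crest and neural cells were compared within single blocks, so that stage, plate and columns were shared. Cells with at least 20 CPM of Sox10 were set against cells with at least that level of Sox2, a marker of neural progenitors, without Sox10, in the 14 blocks with at least 10 cells of each. Ncl was higher in the Sox10-positive cells in 13 of 14 blocks, with a median log2 ratio of 0.24, and Npm1 in 13 of 14, with a median of 0.12. Polr1d was higher in 12 blocks (0.28), Fbl in 12 (0.10), Tcof1 in 10 (0.27), Nolc1 in 10 (0.10), Polr1b in 9 (0.35) and Polr1a in 8 (0.08). Polr1c was higher in 4 of 14, with a median of −0.10. The 14 blocks came from 7 groups of stage and plate. With cells pooled by group, Npm1 was higher in all 7, and Ncl, Polr1d and Tcof1 in 6. Polr1b and Nolc1 were higher in 5, Fbl and Polr1a in 4, and Polr1c in 2. Among all genes, the medians over blocks ran from percentile 34.02 for Polr1c to 90.2 for Polr1b, with Ncl at 83.6 and Npm1 at 70.8. None of the 9 was higher in every block, which 2.35% of all genes were, and none was lower in every block, as 2.99% were. Shares of all genes at 13, 12 or 10 of 14 blocks were not counted, and no share of all genes is given for the counts over the 7 groups. The median ratios lay below 2-fold, and the Rn45s share of the Sox10-positive and Sox2-positive cells differed by −2.41 to 3.17 points in these blocks.

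The link of the 9 genes to the Rn45s share was examined cell by cell in the 9 groups of stage and plate with at least 50 cells. The share of a cell is set against genes of the same library, and it went down with the reads other than Rn45s in every group, with rho from −0.11 to −0.70. The median rho of the 9 genes was 0.02, or 0.03 without the cells that stand apart, and that of all genes −0.02. Npm1 had the highest median, 0.13, over groups from −0.17 to 0.28, and Polr1c followed with 0.11. These were 2 of the 9 genes at 0.1 or above, beside 3.69% of all genes. Tcof1 had the lowest, −0.08, and was below 0 in 8 of the 9 groups. No gene of the 9 was at −0.1 or below, beside 5.24% of all genes. The exception for Tcof1 was the 10-somite group on plate C, at 0.27.

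Since both the Rn45s share and the 9 genes stepped between plate columns, the ranks were also centred within columns. Npm1 then had a median rho of 0.21 and was above 0 in 8 of the 9 groups. It was the 1 gene of the 9 at 0.1 or above, beside 4% of all genes. Tcof1 had −0.13 and was the 1 gene of the 9 at −0.1 or below, beside 4.71%. On plate C its rho went from 0.27 to 0.06 within columns. Ncl had 0.07 and Polr1c 0.05, and the polymerase genes Polr1a, Polr1b and Polr1d lay between 0.00 and 0.04. Rank correlations of this size are given as descriptions of these libraries.

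**Figure D5:**
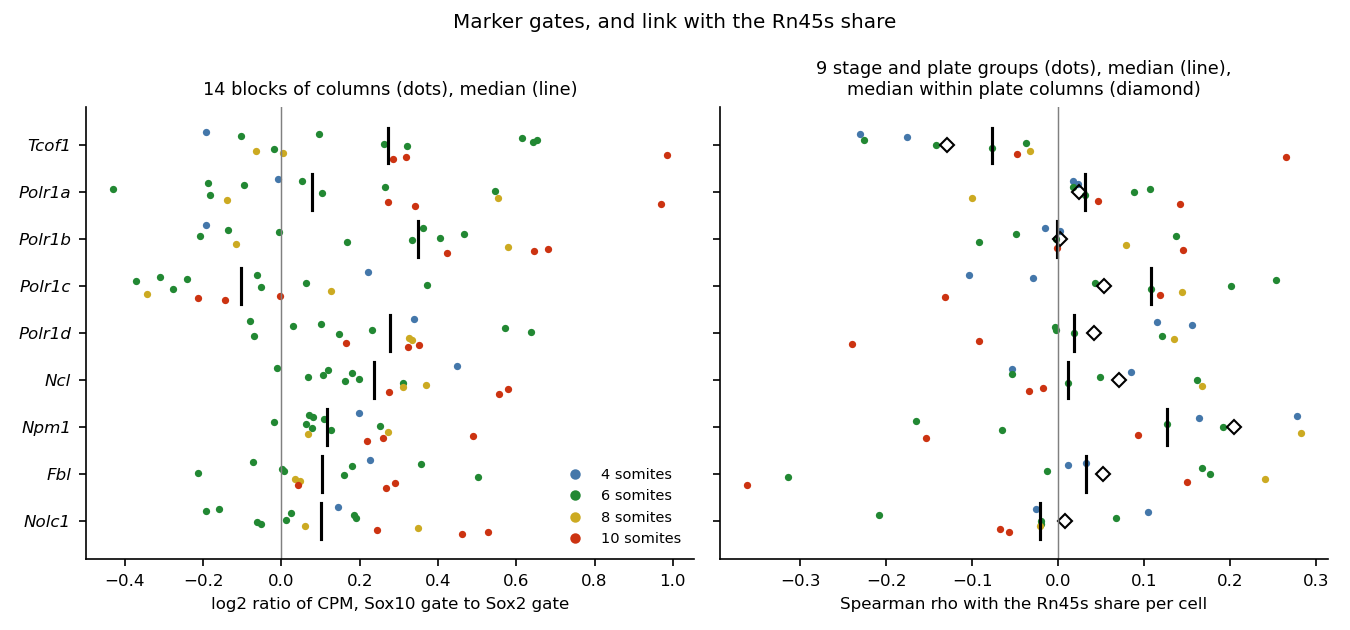
Left, log2 ratio of Sox10-positive to Sox2-positive cells for the 9 genes in 14 blocks of plate columns. Right, Spearman rho of each gene with the Rn45s share of the cell in 9 groups of stage and plate, with the median within columns as a diamond; Npm1 has the highest diamond, at 0.21, and Tcof1 the lowest, at −0.13.

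Genes like Rn45s over cells were sought among those of at least 50 CPM. Unnamed gene models, pseudogenes, and ribosomal protein, small nucleolar and sex-linked marker genes were left out. The highest by median rho with the Rn45s share were Lars2 (0.25), a mitochondrial leucyl-tRNA synthetase, Huwe1 (0.25), a ubiquitin ligase, Ranbp1 (0.24), Actb (0.24) and Rcc2 (0.23). Within columns these genes had 0.34, 0.23, 0.23, 0.18 and 0.20. Lars2 was above 0 in 6 of the 9 groups. Over all tested genes, with none left out by type, the highest median rho was 0.53. The lowest were Tug1 (−0.25), Rcor2 (−0.23), Ssr1 (−0.22), Mat2a (−0.22) and Crk (−0.22). Over the 12 groups, the genes nearest to the mean profile of the 9 genes were Tsn, Tmem50a, Laptm4a, Dnajb6 and Rab34, with Pearson r from 0.90 to 0.92. Over the 23 blocks Laptm4a had 0.91 and Tmem50a 0.51, and over the 21 blocks without the cells that stand apart 0.85 and 0.06. The likeness of Tmem50a thus rested on those cells.

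Among the 9 genes themselves, levels in single cells were weakly related. The median rho of the 36 pairs was 0.08, with or without the cells that stand apart, and 29 pairs were above 0. Pairs of other genes were not computed, so these values have no background. The highest pair was Ncl and Npm1, with 0.48 and values from 0.22 to 0.71 over the 9 groups. Ncl and Nolc1, whose promoters are printed above, had 0.27, Polr1d and Npm1 0.26, and Polr1d and Ncl 0.20. Within columns Ncl and Npm1 had 0.51 and Ncl and Nolc1 0.27, both above 0 in 9 of 9 groups. Some of the other genes had few reads per cell. After thinning to 50000 reads, a read of Polr1a was found in 76.4, 73.8, 86.3 and 86.7% of cells at 4, 6, 8 and 10 somites, against 100% for Npm1 at each stage.

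The other genes of the pathway also differed little between stages. For 10 against 4 somites over all cells, 0 of 8 further polymerase I subunits and partners, 0 of 12 small nucleolar ribonucleoprotein genes and 0 of 42 genes of pre-rRNA processing and ribosome assembly were 2-fold higher or lower, where 3.42% of all genes were higher and 2.93% lower. In the chained within-plate route 1 of the 12 was lower, 2 of the 42 were higher and 3 lower, where 7.15% of all genes were higher and 4.12% lower. The median log2 ratios of these 3 lists over all cells were 0.20, 0.05 and 0.07, beside 0.02 for all genes. Without the cells that stand apart they were −0.09, −0.07 and 0.03, beside 0.02. Of 11 polymerase III subunits 1 was at least 2-fold higher, Polr3gl, at 5.23 CPM against 2.48 CPM. Among the 10 initiation and termination factors, which include the regulators of rDNA transcription Myc and Mycn, the median was 0.08, and 0 of them were 2-fold higher over all cells and 1 in the chained route. The largest ratios over all cells were those of Myc and Mycn. Myc stood at 83.7, 104.4, 142.2 and 162.8 CPM, with blocks from 76.3 to 96.98 CPM at 4 somites and from 119.04 to 192.4 at 10. Mycn stood at 242.1, 245.7, 414.7 and 447.7 CPM, with blocks from 204.9 to 283.9 CPM at 4 somites and from 349.2 to 493.98 at 10. Without the cells that stand apart the log2 ratios of 10 to 4 somites were 1.04 for Myc and 0.96 for Mycn. In the chained within-plate route they were 1.27 and 0.26, so most of the difference in Mycn was not seen within plates. How many of all genes have blocks that separate in this way was not counted.

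The cytosolic ribosomal protein genes, whose products join the rRNA in the ribosome, had a median whose sign depended on the cells used. For 10 against 8 somites their median log2 ratio was 0.55 over all cells, −0.10 without the cells that stand apart and −0.35 within plate B. In columns of that plate with a like spike-in share it was −0.08. For 10 against 4 somites it was 0.26 over all cells, −0.46 without those cells, and −0.86 in the chained within-plate route, where 11 of 38 genes were at least 2-fold lower, as were 4.12% of all genes. These medians are over the 38 genes that reached 5 CPM. In a list of 21 targets and regulators of p53, which loss of treacle is known to activate in the crest, 18 reached 5 CPM and had a median of −0.10. Pmaip1, which encodes a pro-apoptotic protein, stood at 116.1, 66.5, 7.20 and 5.43 CPM, a log2 ratio of −4.42 for 10 against 4 somites and −1.27 in the chained route. Plk2, which encodes a stress-induced kinase, stood at 15.2, 35.4, 37.99 and 55.5 CPM, with ratios of 1.86 and 1.81.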

How the data were processed

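The authors deposited 1 table of raw, unnormalized counts per gene for 1778 single cells read with Smart-Seq2, with 24920 genes and 92 spike-ins. The tools bcl2fastq 2.18 and STAR 2.6 and the build mm10 are listed, without their roles, in the submitters' processing notes. Not given in the sources used here are the read counter, its annotation and strand setting, and what was done with reads that map to several places.

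Cells were kept from 50000 reads on genes and 1500 detected genes upward, which left 1728: 220, 835, 227 and 446 of 4, 6, 8 and 10 somites. Plates A to H are numbers 6150653, 6150657, 6150662, 6150663, 7350589, 7350590, 7350657 and 7350658. Rn45s was taken as a percent of the reads on genes. The other genes were taken as CPM with Rn45s and spike-ins out of the total. Reads were summed over cells, 0.5 reads were added to each sum, and log2 ratios were taken. Exact Poisson intervals at 95% cover counting error only. Ratios within plates used plate F for 6 against 4 somites and plate B for 8 against 6 and 10 against 8. For 10 against 4, the step from 4 to 6 on plate F and that from 6 to 10 on plate B were summed. Another route, by way of 8 somites, used plate D, which holds 15 cells of that stage. Genes tested had a mean of at least 20 CPM. Correlations are Spearman's over cells with at least 50000 reads other than Rn45s. Coordinates and lengths are those of GENCODE vM21 on GRCm38, matched by symbol, and promoters are from RefSeq on GRCm38.p6. Rn45s has no coordinates here.

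The members, gene lists, comparisons and most alternatives were chosen with earlier results of these data known. All members are named, with the 5 genes of highest and the 5 of lowest median rho with the Rn45s share, the 5 genes most like the mean profile of the other members (genes of at least 50 CPM), and up to 4 genes of a list with the largest ratio for 10 against 4 somites. Genes named by rho or profile exclude unnamed gene models, pseudogenes, and ribosomal protein, small nucleolar and sex-linked marker genes. Of the fixed lists, values for S phase, G2M phase, dissociation stress and the markers are given with the other observations. Blocks of plate columns, the cells that stand apart and the use of coding length were chosen after seeing the data.

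Python 3.11.15, numpy 2.4.6, pandas 2.3.3, scipy 1.17.1 and matplotlib 3.10.9 were used. R 4.3.3 with edgeR 4.0.16 and DESeq2 1.42.0 served for alternative scaling factors alone. The steps were tested on simulated data. The alternatives were scaling, cell filters, added reads, thinning, plates left out or weighted equally, and plate columns.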

Additional observations from a re-analysis of the deposited data

Results flagged for a closer look

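Among 30 groups of 4 to 10 values, of blocks or of plates, 2 held a value far from the others, where chance gives about 1 in 20. Both were values of blocks. At 6 somites Npm1 stood at 7391 CPM in columns 12 to 18 of plate H, above the other 9 blocks of that stage, which ran from 4793 to 5737 CPM. In the same block 39 cytosolic ribosomal protein genes summed to 30490 CPM, against 20542 CPM in columns 19 to 24 of the plate. At 10 somites Polr1a stood at 145.8 CPM in columns 14 to 19 of plate C, above the other 6 blocks, whose highest was 96.2 CPM.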

How the results depend on the processing

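Of the values recomputed under alternatives, 84.2% moved by no more than the spread between plates. The sign differed from that of the reported value in 21. No paired analysis was possible because the cells carry only numbers in accession order, which pair no cells across stages.

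With Rn45s counted in the totals, the median log2 ratio of the 9 genes was 0.56 for 8 against 6 somites, −0.10 for 10 against 8 and 0.32 for 10 against 4. Scaling by spike-ins within plates gave −3.43, −2.47, −0.55 and −6.56 for 6 against 4, 8 against 6, 10 against 8 and 10 against 4. The spike-in share itself stepped between the plate columns that hold the stages. Within plates the median was −0.12 for 10 against 8 and −0.19 for 10 against 4. With equal weight per plate it was 0.21 for 10 against 8, and in Sox10-positive cells 0.03 for 10 against 4. The Rn45s difference for 8 against 6 somites was −3.32 points within plates, −4.31 with equal weight and −2.41 in columns with a like spike-in share. It was −7.47 with equal weight for 10 against 8, and 10.69 within plates for 10 against 4.

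Leaving out 1 plate at a time moved the median log2 ratio from −0.17 to −0.01 for 6 against 4, from 0.05 to 0.14 for 8 against 6, from −0.031 to 0.27 for 10 against 8 and from −0.0056 (without plate C) to 0.28 for 10 against 4. The Rn45s difference ran from −4.79 to 11.2, from −16.3 to 0.50, from −9.87 to 7.25 and from −14.0 to 2.13 points. The median rho with the Rn45s share ran from −0.0014 to 0.030, and the median rho among the 9 genes from 0.072 to 0.102. The latter was 0.109 as Pearson's r and 0.042 after thinning. The causes were not tested.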

Other observations

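Other lists gave a view of the cells in which the 10 genes were read. For 10 against 4 somites, 39 S phase genes had a median log2 ratio of −0.03 and 51 G2M genes −0.16. The summed S phase level was 12624, 12696, 12257 and 12277 CPM over the 4 stages. G2e3, an E3 ligase of the G2M list, stood at 87.4, 82.03, 49.6 and 40.8 CPM, a ratio of −1.10 over all cells and −0.00 in the chained within-plate route. Of 14 genes that tissue dissociation is known to raise, 5 were at least 2-fold lower over all cells, where 2.93% of all genes were, with a median of −0.33. In the chained route 6 of them were at least 2-fold higher, where 7.15% of all genes were, with a median of 0.68. Fos, an immediate early gene of this list, stood at 265.96, 192.1, 8.96 and 53.2 CPM; its ratio for 10 against 4 somites was −2.32 over all cells and 1.89 in the chained route. The marker sums of neuroepithelium were 258.5, 240.1, 253.3 and 222.7 CPM, those of endothelium 76.3, 114.8, 106.2 and 76.1 CPM, those of mesoderm 34.3, 55.9, 69.6 and 83.8 CPM, and those of endoderm 10.5, 32.1, 32.4 and 33.6 CPM.

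At 6 somites 19 cells passed the limit for Cdh5, a gene of endothelial cells. In these cells Polr1b stood at 90.8 CPM, Polr1c at 92.3 CPM, Polr1a at 39.1 CPM and Npm1 at 3763 CPM. In the Sox10-positive cells of the stage the same genes stood at 225.8, 203.5, 87.4 and 5883 CPM, while Polr1d was at 138.8 CPM in the Cdh5-positive and 126.1 CPM in the Sox10-positive cells. The 19 cells were not compared within plates.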
